A study of Mus musculus with 36 samples.

Results

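Vasopressin (Avp), oxytocin (Oxt), corticotropin-releasing hormone (Crh), thyrotropin-releasing hormone (Trh), growth hormone-releasing hormone (Ghrh) and gonadotropin-releasing hormone (Gnrh1), with the oxytocin receptor (Oxtr) and the vasopressin receptor 1a (Avpr1a), were followed across 3 brain regions of mice that lack hypocretin signalling. The members were the 8 rows, of 38924 genes in each table, whose Ensembl identifier carries one of these symbols in the GENCODE M21 annotation of GRCm38. Polyadenylated RNA of hypothalamus, cortex and brainstem had been sequenced from C57BL/6 mice of 4 genotypes, as 12 groups of 3 libraries. The first genotype was the Hcrt/Orexin-ataxin-3 transgenic, in which a toxic ataxin-3 fragment under the hypocretin promoter removes the hypocretin neurons themselves. The second was the wild type of that line, the third was the Hcrt knockout, which keeps the neurons and loses the peptide gene, and the fourth was the wild type of the knockout line. Each model was set against its own wild type, so no control library was shared between the models. Age and sex are not in the labels. The labels also do not state whether a group came from 3 different animals, or whether libraries of different tissues share an animal. P-values therefore measure only how far these samples spread, which may be technical.

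Vasopressin and oxytocin are nonapeptides made by magnocellular neurons of the paraventricular and supraoptic nuclei, which send their axons to the posterior pituitary and release the hormones into the blood. The releasing hormones are made by smaller neurons that release them into the portal vessels of the median eminence, from where they act on the anterior pituitary: Crh drives corticotropin, Trh drives thyrotropin, Ghrh drives growth hormone and Gnrh1 drives the gonadotropins. Crh and Trh are also made in many neurons outside the hypothalamus, where they act as neuromodulators. Oxtr and Avpr1a are G protein-coupled receptors that carry central effects of both nonapeptides.

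Avp and Oxt lie beside each other in mouse GRCm38, Avp on the minus strand at chr2:130580620-130582554 and Oxt on the plus strand at chr2:130576173-130577054, with 3565 bases between them. The 27 bases that encode each nonapeptide lie in exon 1 and are printed 5′ to 3′, from GRCm38, because they are what sets the hormones apart. They differ at 5 bases, in 3 of 9 codons, and capitals mark the bases that differ. The differing codons ccA (Avp) and ccC (Oxt) both encode proline, so that difference leaves the peptide unchanged. The Avp bases are at chr2:130582446-130582472 on the minus strand, and the Oxt bases are at chr2:130576267-130576293 on the plus strand.
Avp hormone codons: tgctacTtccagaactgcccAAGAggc
Oxt hormone codons: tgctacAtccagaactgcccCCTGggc

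The transcripts of both genes also share a coding stretch of 127 bases without a mismatch, shown because it bears on how reads of both genes are counted. It encodes part of the neurophysin carrier that follows the hormone in both precursors, with 2 bases in exon 1 and 125 in exon 2. It makes up 22.0% of the 577-base Avp transcript and 23.6% of the 537-base Oxt transcript. Its exon bases fall within chr2:130581133-130582411 (Avp, minus strand) and chr2:130576328-130576715 (Oxt, plus strand), spans that include an intron.
Shared Avp and Oxt stretch: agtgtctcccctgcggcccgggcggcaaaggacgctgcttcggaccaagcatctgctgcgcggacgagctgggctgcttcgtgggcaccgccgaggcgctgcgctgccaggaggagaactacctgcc
A read that lies wholly in this stretch matches both genes. Windows of 100 bases that are in both transcripts make up 5.86% of those of Avp and 6.39% of those of Oxt, and windows of 50 bases make up 14.8% and 15.98%. The tables leave reads that align to several places (up to 26.4% of a library) out of every gene's count, so the levels of Avp and Oxt may be understated. How many of their reads were lost was not tested, and the read length is not given in the sources used here.

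The 250 bases before the transcript start, from RefSeq promoters of GRCm38.p6, are shown for the same pair because both genes were near absent outside the hypothalamus. RefSeq entries matched 6 of the 8 members. The 5-letter motif TGACC, searched on both strands as TGACC and GGTCA and marked by capitals, is the core of the element bound by several nuclear receptors. Oxt held 5 copies at chr2:130575919-130576168 (plus strand), a number that 0.0426% of 32851 promoters reach. Avp held 0 copies at chr2:130582589-130582838 (minus strand), and at least 1 copy was in 35.2% of promoters. Both held ATAAA on their own strand in the 50 bases nearest the start, as 6.57% of promoters did. Such matches describe the letters of these windows and nothing about binding.
Oxt promoter: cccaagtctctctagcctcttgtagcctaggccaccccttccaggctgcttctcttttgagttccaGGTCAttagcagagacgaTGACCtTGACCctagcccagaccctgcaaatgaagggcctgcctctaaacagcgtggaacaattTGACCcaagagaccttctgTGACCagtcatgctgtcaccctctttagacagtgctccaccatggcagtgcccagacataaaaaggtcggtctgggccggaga
Avp promoter: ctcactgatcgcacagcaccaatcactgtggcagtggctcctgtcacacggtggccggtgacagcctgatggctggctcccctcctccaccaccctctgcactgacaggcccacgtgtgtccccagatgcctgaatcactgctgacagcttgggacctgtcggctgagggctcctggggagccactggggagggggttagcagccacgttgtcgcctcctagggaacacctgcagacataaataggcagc

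The other members were on 5 chromosomes. Ghrh lay at chr2:157329497-157347506 (minus strand), Trh at chr6:92242061-92244650 (minus strand) and Oxtr at chr6:112473683-112489943 (minus strand). Crh lay at chr3:19693401-19695396 (minus strand), Gnrh1 at chr14:67745181-67749439 (plus strand) and Avpr1a at chr10:122448499-122453452 (plus strand). Avpr1a is overlapped by the antisense gene Gm48877, and since the strand setting of the counting is not given, its level is uncertain.

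Reads assigned to genes numbered 26146840 to 47057537 for a hypothalamus library, 23860166 to 46001354 for a cortex library and 21915540 to 42105559 for a brainstem library. Levels are given as CPM, the counts-per-million unit, scaled with TMM factors over all libraries. The 6 hypothalamus markers summed to 473 to 842 CPM in hypothalamus and at most 2.04 CPM elsewhere. Hcrt had 63 to 122 counts in transgenic hypothalami and 34 to 39 in knockout hypothalami, against 2000 to 7126 in wild types. The wild types of the lines did not overlap in Hcrt, at 101 to 194 CPM in the ataxin-3 line and 51.0 to 80.2 CPM in the knockout line. In 4 hypothalamus libraries, transcripts of neighbouring tissues stood out. The anterior pituitary list (8 genes with a line, led by Gh) summed to 26026 and 13858 CPM in ataxin-3 line wild types 1 and 3 and to 18790 CPM in knockout line wild type 3, and lay between 6.81 and 60.9 CPM in the other 9 hypothalamus libraries. The nasal epithelium list (4 genes, among them Omp) summed to 2179 CPM in transgenic library 1, and to at most 40.4 CPM in the other 11. Results in hypothalamus are given with all libraries. Leaving out these 4 leaves 2 transgenic libraries against the single wild type 2 of that line, and 3 knockouts against 2 wild types, so the transgenic values of that fit rest on 1 wild-type library, assumed to vary like the other groups. Other tissue lists also varied among the hypothalami. The cortex list (5 genes) summed to 129.6 and 99.6 CPM in knockout line wild types 1 and 3 and to at most 19.1 CPM in the other 10. The striatum list (4 genes) summed to 143.7 and 130.6 CPM in transgenic libraries 2 and 3 and 131.2 CPM in ataxin-3 line wild type 3, and to at most 80.6 CPM in the other 9. The part of these transcripts in the results was not tested. In brainstem, ataxin-3 line wild types 1 and 2 had the fewest gene counts, and reads not assigned to a gene made up 32.3% and 42.0% of their totals.

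Across tissues, 7 of the 8 genes had their highest level in the hypothalamus, and Crh did not. In wild types, Avp averaged 186 ± 60.7 CPM in hypothalamus, 0.130 ± 0.0974 CPM in cortex and 0.274 ± 0.255 CPM in brainstem (SD, n = 6 each). Oxt averaged 112 ± 25.0 CPM in hypothalamus, 0.0989 ± 0.0579 CPM in cortex and 0.123 ± 0.171 CPM in brainstem. In counts, the hypothalamus libraries of all genotypes held 3908 to 11566 reads of Avp and 2471 to 7372 of Oxt. The cortex libraries held 0 to 14 reads of Avp and 0 to 12 of Oxt, and the brainstem libraries 1 to 41 and 0 to 27. Where a library had 0 reads, up to 3 could have been missed, which is 0.0638 to 0.137 CPM at these depths, and this limit covers counting error only.

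**Figure D1:**
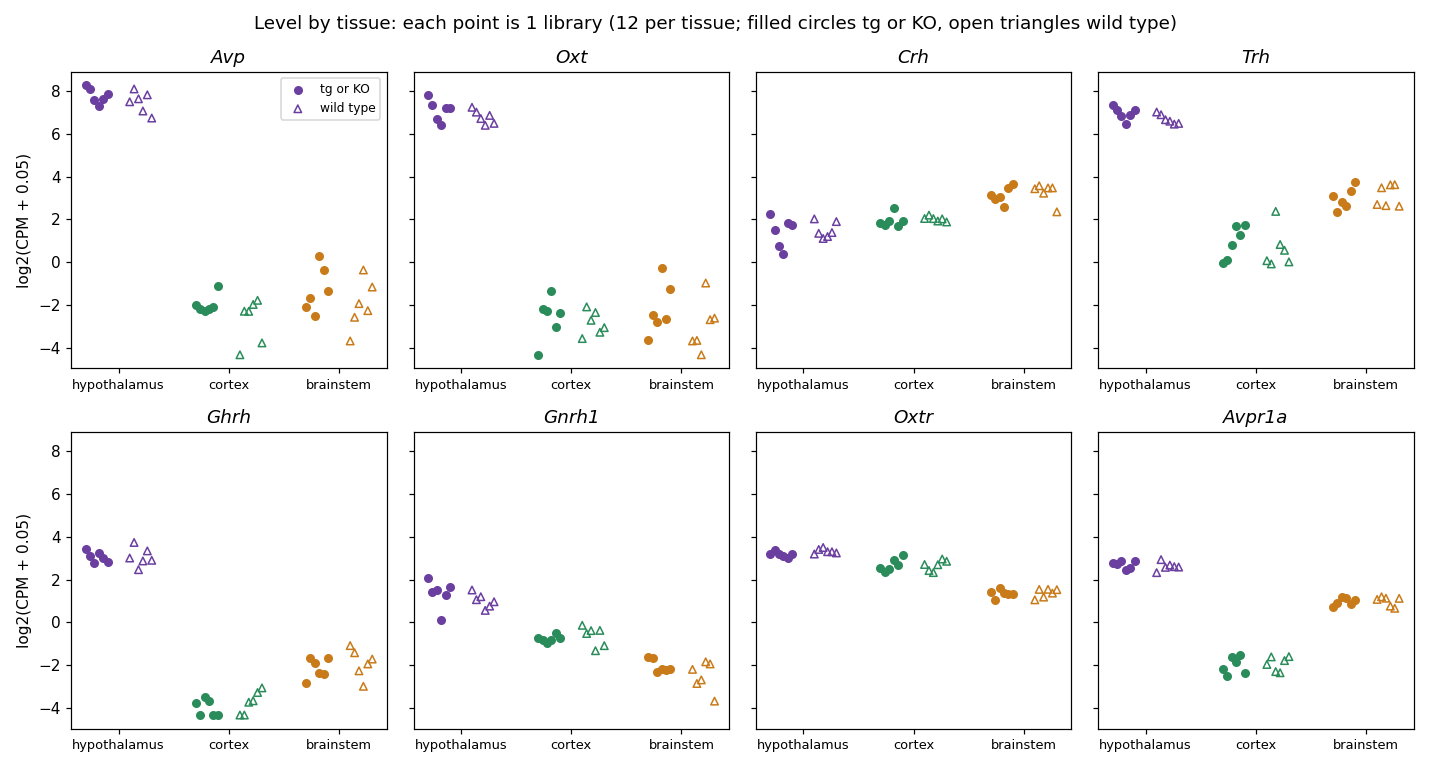
Level of each gene on the vertical axis as log2(CPM + 0.05), for the 12 libraries of each tissue on the horizontal axis; filled circles are transgenic or knockout libraries and open triangles are wild types. Avp, Oxt, Trh and Ghrh stand far above the other tissues in hypothalamus, and Crh is highest in brainstem. The orders of cortex and brainstem are opposite for Oxtr and Avpr1a.

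Between wild-type hypothalamus and wild-type cortex, 7 of the 8 genes passed the edgeR quasi-likelihood test at an adjusted p under 0.05, all of them higher in hypothalamus. Of the 17744 genes tested, 38.7% were called higher and 37.2% lower in that comparison, so a call by itself is common and the size of the difference carries the information. As log2 fold changes, Avp had 10.48 (SE 0.32, edgeR adjusted p = 6.2e-21), Oxt at 10.12 (SE 0.33), Ghrh at 8.31 (SE 0.35) and Trh at 5.84 (SE 0.30). Gnrh1 stood at 1.73 (SE 0.23) and Oxtr at 0.70 (SE 0.09, edgeR adjusted p = 4.1e-08). Avpr1a stood at 4.82 (SE 0.16). Crh was the exception, with 2.85 ± 0.797 CPM in hypothalamus and 4.01 ± 0.318 CPM in cortex, a log2 fold change of -0.46 (SE 0.25) that did not pass (edgeR adjusted p = 0.10). Without knockout line wild type hypothalamus 1 it was -0.62 and passed (edgeR adjusted p = 0.038), and it did not pass with any other library left out.

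Between wild-type hypothalamus and wild-type brainstem all 8 genes passed, 7 of them higher in hypothalamus, where 36.2% of genes tested were called higher and 32% lower. As log2 fold changes, Avp had 9.60 (SE 0.30), Oxt at 10.62 (SE 0.36), Ghrh at 5.17 (SE 0.26), Gnrh1 at 3.90 (SE 0.29) and Trh at 3.55 (SE 0.26). The receptors stood at 1.98 (SE 0.10) for Oxtr and 1.65 (SE 0.12) for Avpr1a. Crh was lower in hypothalamus, with 2.85 ± 0.797 CPM against 9.84 ± 2.48 CPM in brainstem, a log2 difference of -1.76 (SE 0.25, edgeR adjusted p = 4.8e-07). The 6 wild-type hypothalami, at 2.11 to 4.02 CPM, all lay below the 6 wild-type brainstems, at 5.06 to 11.8 CPM.

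Cortex and brainstem differed in opposite directions for different members. Of the 8 genes, 2 were called higher in wild-type cortex and 4 lower, where 38.7% of genes tested were called higher and 39.8% lower. Oxtr had 6.36 ± 1.06 CPM in cortex and 2.56 ± 0.366 CPM in brainstem, a log2 difference of 1.28 (SE 0.10, edgeR adjusted p = 3.9e-13). Avpr1a had 0.218 ± 0.0593 CPM in cortex and 1.96 ± 0.295 CPM in brainstem, a log2 difference of -3.17 (SE 0.17, edgeR adjusted p = 7.3e-17). The order of cortex and brainstem was thus opposite for the receptors, and both were highest in hypothalamus. Gnrh1 was higher in cortex (2.17, SE 0.32), at 12 to 28 reads a library in cortex and 1 to 9 in brainstem. Crh (-1.30, SE 0.24), Trh (-2.29, SE 0.32) and Ghrh (-3.13, SE 0.58) were lower in cortex, and Ghrh had at most 3 reads in any cortex library. Avp and Oxt did not pass between cortex and brainstem, with log2 fold changes of -0.87 (SE 0.83) and 0.49 (SE 1.15). In bulk tissue, fewer cells of a type and less RNA per cell cannot be told apart.

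Divided by exon length, the levels can be set side by side between genes, here as CPM per kilobase of exon (RPKM) of the 6 wild types. In hypothalamus Avp had a median of 328 RPKM, Oxt 205, Trh 71.2 and Ghrh 11.6. Avp and Oxt overlapped, and Oxt, Trh and Ghrh each lay above the next without overlap. Gnrh1 (3.08 RPKM), Avpr1a (2.25), Oxtr (2.05) and Crh (1.92) followed, all lying below Ghrh and each overlapping its neighbour. In cortex Crh had the highest median, 3.06 RPKM, above Oxtr at 1.35 with no overlap. Trh had a median of 0.875 RPKM there and overlapped Crh, since knockout line wild type 3 had 3.71 RPKM of Trh, above the highest Crh value of 3.45 RPKM. In brainstem Crh at 8.26 and Trh at 6.33 RPKM overlapped each other and lay above Avpr1a at 0.785 and Oxtr at 0.562. By its median, the gene for the main stress-releasing hormone was therefore the highest of the 8 in cortex and in brainstem, where Trh overlapped it in both, and the lowest in hypothalamus. The ratio of Avp to Oxt per length was 1.11 to 1.97 over the 12 hypothalamus libraries, with a median of 1.52, so Avp was the higher of the pair in all 12.

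The genotype comparisons ask what happens to these neuroendocrine genes when the hypocretin neurons, or the hypocretin gene alone, are lost. No member passed the test in either model in any tissue. Over the 36 tests of members that passed the low-count filter (for each model 8 genes of the hypothalamus, 4 of the cortex and 6 of the brainstem), the smallest edgeR adjusted p was 0.74 and 0 had an unadjusted p under 0.05. DESeq2 and limma voom with quality weights also called 0 members in each of the 6 comparisons. Few genes were called at all: 0.00597% of the genes tested in transgenic hypothalamus and 0.0119% in knockout hypothalamus, with 0% and 0.0789% in cortex and 0.00606% and 0.0728% in brainstem. In hypothalamus the 95% intervals of the 8 genes ran from 0.483-fold to 2.12-fold in the transgenic comparison and from 0.541-fold to 2.19-fold in the knockout comparison, so larger changes lie outside them.

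**Figure D2:**
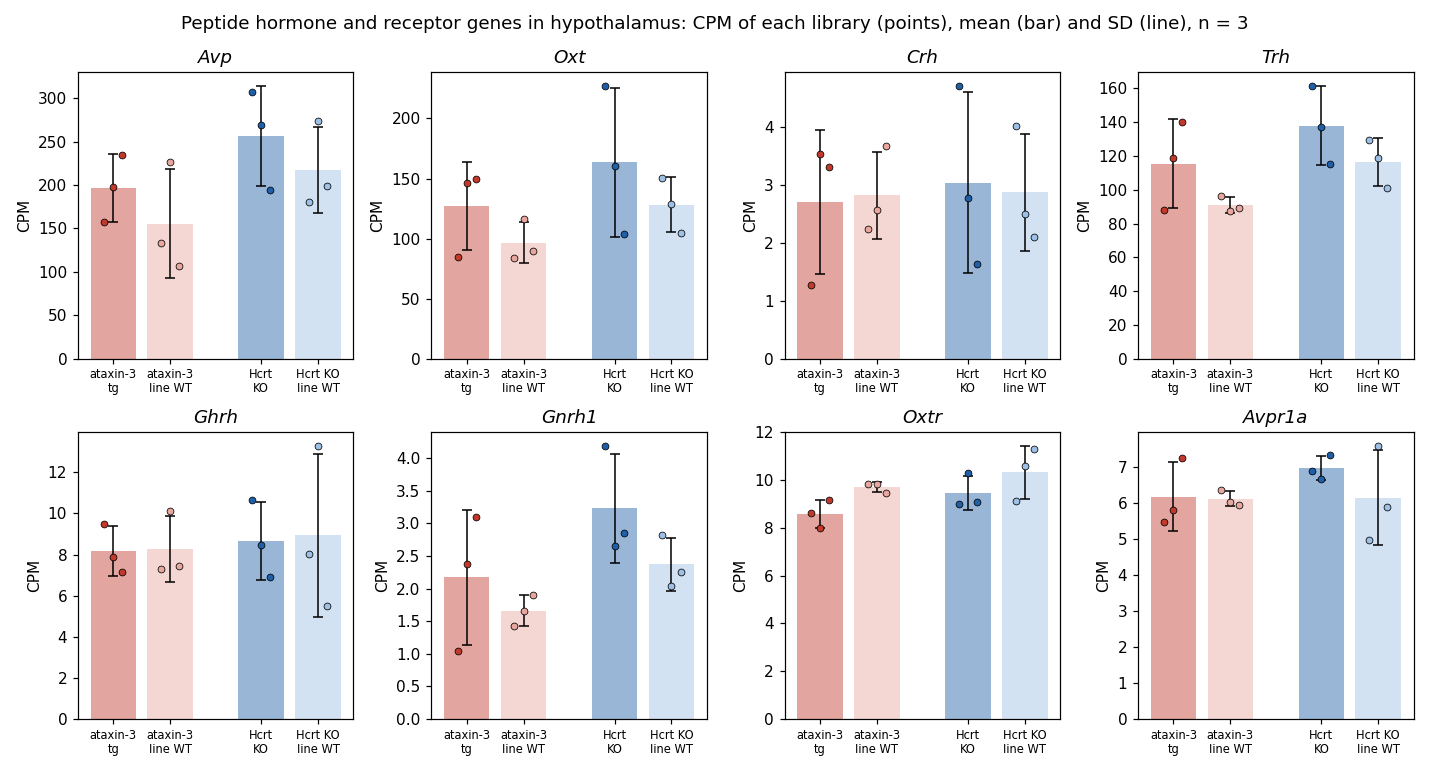
CPM of each gene in the hypothalamus on the vertical axis, with the transgenic libraries, the wild types of their line, the knockouts and the wild types of their line from left to right; points are libraries, bars are means and lines are the SD of 3 libraries. The groups overlap for each gene and model except Oxtr in the transgenic line, where the 3 transgenic libraries at 8.004 to 9.17 CPM lie below their 3 wild types at 9.46 to 9.84 CPM.

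Avp had 157, 197 and 235 CPM in transgenic hypothalami, against 134, 226 and 106 CPM in their wild types. It had 307, 270 and 194 CPM in knockout hypothalami, against 180.4, 273 and 199 CPM in their wild types. In both models the groups overlapped, and wild type 2 was the highest of its group. The lower ataxin-3 line wild types, 1 and 3, were those with pituitary transcripts, whose part in the difference was not tested. The log2 fold change was 0.34 (SE 0.28) in the transgenic line and 0.24 (SE 0.28) in the knockout, with edgeR adjusted p of 1.00 and 0.85. With those 4 libraries of pituitary or nasal transcripts left out, the transgenic value was -0.079, against wild type 2 alone, the highest Avp level of its group.

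Oxt had 85.1, 147 and 149.8 CPM in transgenic hypothalami, against 84.1, 116 and 89.6 CPM in their wild types. It had 227, 160.2 and 104 CPM in knockout hypothalami, against 151, 129 and 105 CPM in their wild types. The groups overlapped in both models, and the spread within the knockouts was wider than the gap between the means. Its log2 fold change was 0.39 (SE 0.29) in the transgenic line and 0.35 (SE 0.29) in the knockout, with edgeR adjusted p of 1.00 and 0.81.

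Trh, which drives the thyroid axis, had 87.7, 119 and 139.8 CPM in transgenic hypothalami, against 96.1, 87.4 and 89.5 CPM in their wild types. It had 162, 137 and 115 CPM in knockout hypothalami, against 129, 119 and 101 CPM in their wild types. Transgenic libraries 2 and 3 lay above all 3 wild types and library 1, the one with nasal transcripts, lay among them. The log2 fold change was 0.34 (SE 0.16) in the transgenic line, with an unadjusted p of 0.0518 and an edgeR adjusted p of 1.00, and 0.24 (SE 0.16) in the knockout (edgeR adjusted p = 0.81). Leaving out 1 library at a time moved the transgenic value between 0.19 and 0.48, and it was 0.55 against wild type 2 alone, with the 4 libraries left out.

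Crh had 1.27, 3.53 and 3.31 CPM in transgenic hypothalami, against 2.25, 2.56 and 3.68 CPM in their wild types. It had 4.72, 2.78 and 1.63 CPM in knockout hypothalami, against 4.02, 2.50 and 2.11 CPM in their wild types. With 56 to 163 reads a library and a coefficient of variation within groups of 40.9%, it was the most variable of the 8 in this tissue. Its log2 fold change was -0.08 (SE 0.44) in the transgenic line and 0.07 (SE 0.44) in the knockout, and its sign turned in both models under several of the alternatives. With the 4 libraries left out it was 0.40 in the transgenic line, against wild type 2 alone, and -0.12 in the knockout.

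Ghrh had 9.49, 7.90 and 7.13 CPM in transgenic hypothalami, against 7.28, 10.1 and 7.44 CPM in their wild types. It had 10.7, 8.46 and 6.90 CPM in knockout hypothalami, against 8.02, 13.3 and 5.48 CPM in their wild types. The groups overlapped, and the log2 fold change was -0.01 (SE 0.28) in the transgenic line and -0.04 (SE 0.28) in the knockout. With the 4 libraries left out these were -0.45, against wild type 2 alone, and -0.31. Gnrh1 had 1.04, 2.38 and 3.09 CPM in transgenic hypothalami, against 1.43, 1.65 and 1.91 CPM in their wild types. It had 4.19, 2.65 and 2.85 CPM in knockout hypothalami, against 2.81, 2.04 and 2.25 CPM in their wild types. The highest libraries were in the models, and the groups still overlapped. The log2 fold change of Gnrh1 was 0.37 (SE 0.33) in the transgenic line and 0.44 (SE 0.32) in the knockout, with edgeR adjusted p of 1.00 and 0.81. The transgenic value was 0.028 without transgenic library 3, 0.70 without transgenic library 1 and 0.72 with the 4 libraries left out.

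Among the receptors, Oxtr had 8.63, 8.004 and 9.17 CPM in transgenic hypothalami, against 9.84, 9.83 and 9.46 CPM in their wild types. It had 9.01, 10.3 and 9.09 CPM in knockout hypothalami, against 9.12, 10.6 and 11.3 CPM in their wild types. In the transgenic line all 3 libraries lay below their wild types, a pattern that 9.55% of all tested genes also showed in either direction. In the knockout the groups overlapped, as they did for all 8 members, and 7.26% of tested genes had groups that did not. The log2 fold change of Oxtr was -0.17 (SE 0.11, edgeR adjusted p = 1.00) in the transgenic line and -0.13 (SE 0.10, edgeR adjusted p = 0.81) in the knockout. It was the least variable member in hypothalamus, with a coefficient of variation within groups of 7.49%. Avpr1a had 5.47, 5.81 and 7.28 CPM in transgenic hypothalami, against 6.36, 6.05 and 5.97 CPM in their wild types. It had 6.90, 6.69 and 7.34 CPM in knockout hypothalami, against 4.98, 7.60 and 5.91 CPM in their wild types. The groups overlapped, at log2 fold changes of 0.01 (SE 0.15) and 0.17 (SE 0.15).

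The difference between the models' effects was also tested in hypothalamus, and 0 of 8 members passed, as did 0% of all genes tested. These differences, transgenic effect minus knockout effect, lay between -0.16 (Avpr1a, SE 0.21, and Crh, SE 0.62) and 0.10 (Avp, SE 0.40, and Trh, SE 0.22). The wild types of the lines were compared with each other in the same way. In ataxin-3 line wild types minus knockout line wild types, Avp stood at -0.49 (SE 0.28), Oxt at -0.42 (SE 0.29), Trh at -0.36 (SE 0.16) and Gnrh1 at -0.52 (SE 0.33). None passed (edgeR adjusted p = 1.00 for each), and 0% of all genes did. The groups of Trh and Gnrh1 did not overlap between the lines, a state that 10.8% of tested genes shared.

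**Figure D3:**
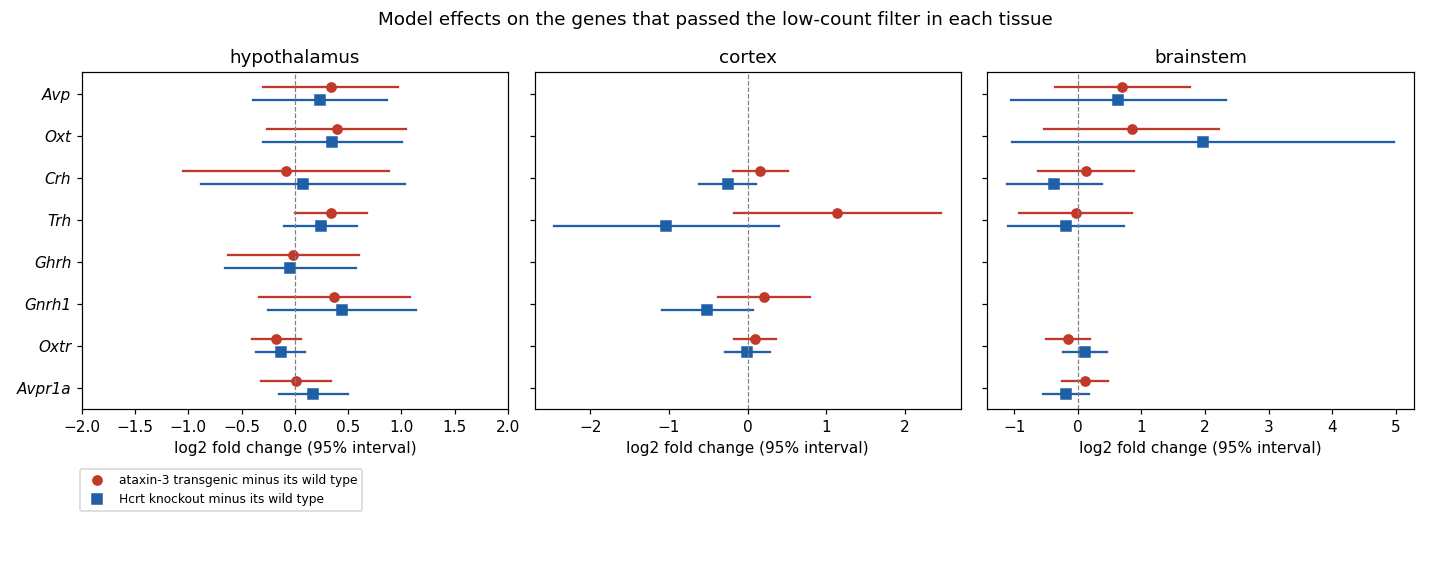
Log2 fold change on the horizontal axis, with its 95% interval, of each gene that passed the low-count filter in hypothalamus, cortex and brainstem; circles are transgenic minus wild type and squares are knockout minus wild type, and each panel has its own scale. All intervals reach 0, and the widest are those of Oxt and Avp in knockout brainstem.

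In cortex Trh had the largest differences of the members. It had 3.23, 2.37 and 3.27 CPM in transgenic cortices, against 1.73, 1.42 and 0.962 CPM in their wild types. It had 0.919, 1.04 and 1.69 CPM in knockout cortices, against 1.00, 0.897 and 5.14 CPM in their wild types. All 3 transgenic libraries lay above their wild types, while the knockout comparison turned on wild type 3, with 200 reads against 29 in each of the other 2. That library also held 340 reads of the olfactory marker gene Omp, against 10 to 58 in the other 11 cortex libraries, and the part of such transcripts in its Trh level was not tested. Its log2 fold change was 1.14 (SE 0.59, edgeR adjusted p = 0.75) in the transgenic line and -1.03 (SE 0.64, edgeR adjusted p = 1.00) in the knockout. Without that library the knockout value was 0.34 (edgeR adjusted p = 1.00). The transgenic value lay between 0.92 and 1.34 with each library left out in turn. The difference between the models' effects, 2.18 (SE 0.87), had an unadjusted p of 0.0319 and an edgeR adjusted p of 0.93, where 0.0243% of all genes passed.

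The other members with enough reads in cortex were Crh, Gnrh1 and Oxtr. Crh had 5.67, 3.14 and 3.74 CPM in transgenic cortices, against 3.75, 4.02 and 3.64 CPM in their wild types. It had 3.53, 3.24 and 3.81 CPM in knockout cortices, against 4.07, 4.55 and 4.06 CPM in their wild types. The knockouts all lay below their wild types, at a log2 difference of -0.25 (SE 0.17, edgeR adjusted p = 1.00). Gnrh1 had 0.515, 0.666 and 0.554 CPM in transgenic cortices, against 0.351, 0.724 and 0.422 CPM in their wild types. It had 0.546, 0.518 and 0.472 CPM in knockout cortices, against 0.863, 0.650 and 0.719 CPM in their wild types. Again the knockouts all lay below their wild types, at -0.51 (SE 0.27, edgeR adjusted p = 1.00), on 12 to 28 reads a library. In the knockout comparison 10.2% of tested genes had groups that did not overlap, and 9.29% in the transgenic one, where Trh was the member that did so. Oxtr had 7.41, 6.32 and 8.90 CPM in transgenic cortices, against 6.44, 7.75 and 7.20 CPM in their wild types. It had 5.76, 5.14 and 5.62 CPM in knockout cortices, against 6.49, 5.32 and 4.98 CPM in their wild types. The groups overlapped in both models, at 0.10 (SE 0.12) and 0.00 (SE 0.13, a value just below 0). Between the wild types of the lines, Oxtr stood at 0.35 (SE 0.13) and Gnrh1 at -0.57 (SE 0.26), both with an edgeR adjusted p of 1.00. In that comparison 0 members and 0% of genes passed with edgeR, 2 members had an unadjusted p under 0.05, and 1 member, Crh, and 10.8% of genes had groups that did not overlap. Avp, Oxt, Avpr1a and Ghrh did not pass the filter in cortex, with at most 14 reads in any library.

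In brainstem Crh and Trh were the members with the most reads. Crh had 5.93, 10.9 and 12.4 CPM in transgenic brainstems, against 11.0, 11.1 and 5.06 CPM in their wild types. It had 8.66, 7.75 and 8.09 CPM in knockout brainstems, against 10.8, 11.8 and 9.30 CPM in their wild types. The transgenic groups overlapped, at a log2 fold change of 0.13 (SE 0.33). The 3 knockouts all lay below their wild types, at -0.37 (SE 0.33, edgeR adjusted p = 1.00). Trh had 6.16, 9.94 and 13.4 CPM in transgenic brainstems, against 12.2, 12.3 and 6.09 CPM in their wild types. It had 8.54, 5.11 and 6.98 CPM in knockout brainstems, against 6.43, 11.1 and 6.20 CPM in their wild types. The groups overlapped in both models, at -0.03 (SE 0.39) and -0.19 (SE 0.40). Transgenic library 1 and ataxin-3 line wild type 3 were the lowest of their groups for both Crh and Trh.

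Avp and Oxt were near the limit of detection in brainstem and were not evenly spread. Avp had 41, 26 and 14 reads in transgenic brainstems, against 19, 3 and 14 in their wild types. It had 6, 8 and 4 reads in knockout brainstems, against 1, 4 and 8 in their wild types. Oxt had 27, 4 and 15 reads in transgenic brainstems, against 12, 2 and 4 in their wild types. It had 1, 4 and 3 reads in knockout brainstems, against 1, 1 and 0 in their wild types. Library 1 held the most reads of both genes in each ataxin-3 line group, and the groups of that line overlapped. In the transgenic line the log2 fold change was 0.70 (SE 0.50) for Avp and 0.85 (SE 0.65) for Oxt, with edgeR adjusted p of 0.74 and 0.76. Without transgenic library 1 these were 0.21 for Avp and 0.093 for Oxt, and without ataxin-3 line wild type 1 they were 1.23 and 1.85. In the knockout it was 0.64 (SE 0.79) and 1.97 (SE 1.41), with edgeR adjusted p of 1.00 for both, and that of Avp lay between 0.19 and 1.35 with each library left out in turn. For Oxt the scaled levels of the knockouts, 0.0306 to 0.134 CPM, lay just above those of their wild types, 0 to 0.0296 CPM, a difference that rests on single reads. Between the wild types of the lines, Avp stood at 1.85 (SE 0.69, edgeR adjusted p = 0.24) and Oxt at 3.36 (SE 1.18, edgeR adjusted p = 0.22), and 0 members and 0% of genes passed.

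For the receptors in brainstem, Oxtr had 2.57, 2.48 and 2.50 CPM in transgenic brainstems, against 2.88, 2.54 and 2.84 CPM in their wild types. It had 2.602, 2.00 and 3.02 CPM in knockout libraries, against 2.03, 2.87 and 2.23 CPM in their wild types. Avpr1a had 2.14, 1.76 and 1.99 CPM in transgenic libraries, against 1.65, 1.53 and 2.13 CPM in their wild types. It had 1.59, 1.80 and 2.25 CPM in knockout libraries, against 2.06, 2.25 and 2.15 CPM in their wild types. The groups of both receptors overlapped, and their log2 fold changes in both models lay between -0.19 and 0.11. Groups that did not overlap were found for 12.3% of tested genes in the transgenic comparison and 0 members. They were found for 9.68% in the knockout comparison and for 2 members, Crh and Oxt, and for 15.1% between the wild types of the lines and 1 member, Oxt. The models' effects differed for 0 of 6 members and 0% of genes.

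A fit of all 36 libraries tested whether an effect in hypothalamus differed from that in cortex or brainstem. For the transgenic effect 0 of 8 members passed against either tissue, and 0% of genes did against cortex and 0% against brainstem. For the knockout effect 0 of 8 members passed, and 0.00564% of genes did against cortex and 0.00564% against brainstem. The smallest unadjusted p of these 32 values for members was that of Gnrh1, whose knockout effect in hypothalamus minus that in cortex was 0.95 (SE 0.46, unadjusted p = 0.0490, edgeR adjusted p = 0.93).

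Within groups, several pairs of the peptide genes had high correlations across the hypothalamus libraries, though none passed after adjustment. After the mean of each group was removed, Oxt and Crh had a Pearson r of 0.885 over the 12 libraries (Spearman rho 0.825), and r was 0.824 without the 2 libraries farthest from the median of Oxt. Oxt and Trh had an r of 0.847 (rho 0.692), and 0.880 without 2 libraries. Crh and Trh had an r of 0.865 (rho 0.748), and 0.585 without 2 libraries. Crh and Gnrh1 had an r of 0.848 (rho 0.762), and 0.531 without 2 libraries. Trh and Gnrh1 had 0.801, Oxt and Gnrh1 had 0.723, and Avp and Oxt had 0.649 (rho 0.664). An exact two-sided permutation test within groups, over all rearrangements, gave these 7 of 28 pairs an unadjusted p between 0.00926 and 0.0432. None passed after Benjamini-Hochberg adjustment over the 28 pairs, where the smallest permutation adjusted p was 0.135. Avp had an r of 0.259 with Crh and 0.399 with Trh, and Ghrh an r of 0.094 with Crh and 0.124 with Trh. Oxtr had an r of -0.446 with Crh and -0.299 with Oxt. None of these 6 had an unadjusted permutation p under 0.05. The 12 libraries also shared depth, dissection and the transcripts of neighbouring tissues, whose part in these relations was not tested. With the same 4 libraries left out, r was 0.926 for Oxt and Trh and 0.594 for Avp and Oxt.

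**Figure D4:**
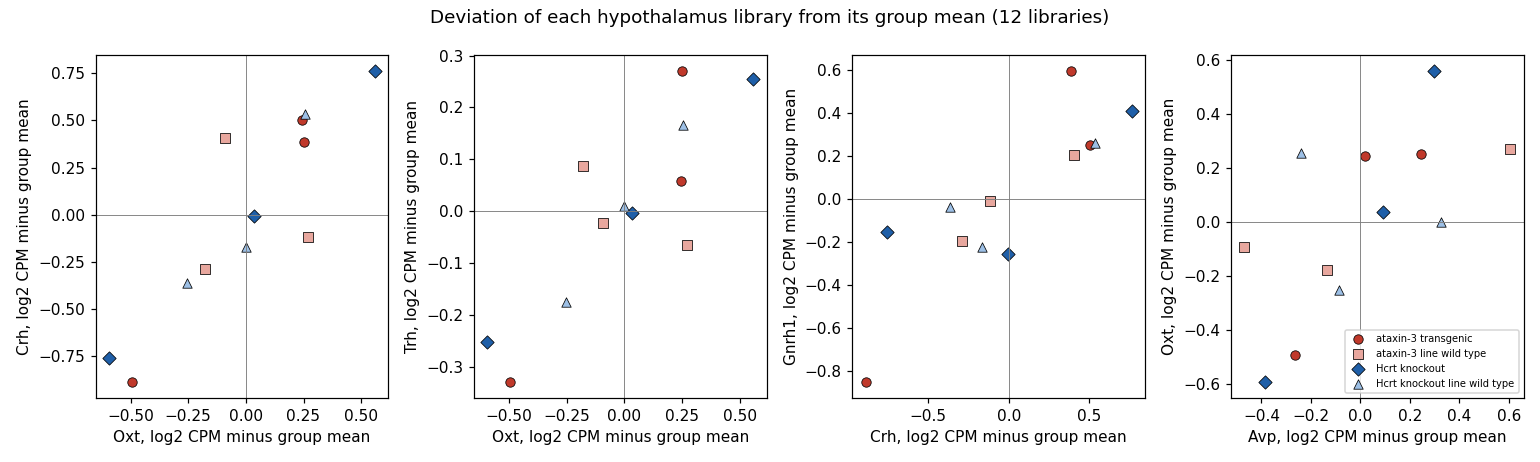
Each point is 1 of the 12 hypothalamus libraries, placed by its log2 CPM minus the mean of its group for the gene on each axis; symbols mark the 4 genotypes. Oxt rises with Crh and Trh and Crh with Gnrh1 across libraries (r = 0.885, 0.847 and 0.848). Transgenic library 1 and a knockout library are at the low end, and Avp follows Oxt more loosely (r = 0.649). None of the 28 pairs of members passed after adjustment.

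The genes whose within-group pattern over the 12 hypothalamus libraries was most like that of a member were, by Pearson r among all tested genes, Ubac1 for Crh (0.982), Avpi1 for Trh (0.968) and Doc2a for Avp (0.951). For Gnrh1 they were B3galt4 (0.970), Htra1 (0.963) and the neurotensin gene Nts (0.960). For Ghrh it was Gfra2 (0.954), for Avpr1a Rpusd4 (0.934) and for Oxtr Mylk4 (0.931). Mylk4 averaged only 0.385 CPM in hypothalamus, so its pattern rests on few reads. These are the highest of many correlations across genes on 12 libraries that share group means, and are given as a description.

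Genes of the same pathways were read from lists. Over 49 genes with a line in 6 lists (receptors and binding proteins, related ligands, peptide processing, transcription factors of the paraventricular and supraoptic nuclei, partners of magnocellular neurons, suprachiasmatic genes), 228 tests in the 6 model comparisons gave 0 calls with edgeR, and 23 had an unadjusted p under 0.05, or 10.1% of them, against 4.67% of all tests in the same comparisons. The lists were chosen with earlier results of these data known and include the pituitary receptor Ghrhr. These shares are therefore a description and not a test of the lists. Of 16 tested receptors and binding proteins, 3 lay above 0 in transgenic hypothalamus and 2 in knockout hypothalamus, with a median log2 fold change of -0.16 and -0.20, against 0.01 and 0.01 over all genes tested. Sstr3, a somatostatin receptor, had 10.0 CPM in transgenic and 12.6 CPM in wild-type hypothalami (-0.34, SE 0.12), and 10.6 CPM in knockout and 14.5 CPM in wild-type hypothalami (-0.46, SE 0.12, edgeR adjusted p = 0.81). Crhr1, the main Crh receptor, stood at -0.30 (SE 0.19) and -0.52 (SE 0.19). Ghrhr, the pituitary receptor of Ghrh, had 0.0188 CPM in transgenic hypothalami and 8.09 CPM in their wild types, and 0.0519 CPM in knockouts and 4.38 CPM in their wild types. It moved with the pituitary list, whose 3 high libraries were all wild types, and it belongs to that list as well. The hypothalami richest in cortex transcripts were also knockout line wild types. The part of pituitary and cortex transcripts in the values of Sstr3, Crhr1 and the receptor list was not tested.

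Of the peptide-processing enzymes, which cut the precursors into hormones, 0 of 6 were called in either model. Pcsk1, a prohormone convertase, had 52.1 CPM in transgenic hypothalami and 75.1 CPM in their wild types (-0.53, SE 0.15, edgeR adjusted p = 1.00), and stood at -0.20 (SE 0.15) in the knockout. Ataxin-3 line wild types 1 and 3 held pituitary transcripts, whose part in the Pcsk1 difference was not tested. Of 4 related ligands with enough reads, 0 were called, and somatostatin (Sst) stood at 0.21 (SE 0.18) and 0.17 (SE 0.18). Among these ligands Npvf stood at 0.08 (SE 0.26) and 0.51 (SE 0.26), and Tac2 at -0.14 (SE 0.13) and 0.19 (SE 0.13). Of the 6 transcription factors 0 were called, and Otp, which specifies these neurons, stood at 0.22 (SE 0.12) and 0.14 (SE 0.12). Of 8 partners of magnocellular neurons 0 were called, and Gal, which magnocellular neurons also make, stood at 0.19 (SE 0.20) and 0.29 (SE 0.20). Nos1 of that list stood at -0.13 (SE 0.15) and -0.24 (SE 0.15), and Caprin2 at -0.01 (SE 0.09) and 0.14 (SE 0.09). Of 6 suprachiasmatic genes 0 were called, and Vip, a peptide of the clock nucleus where Avp is also made, stood at 0.40 (SE 0.33) and 0.07 (SE 0.32). In the same list Six6 stood at -0.46 (SE 0.30) and -0.13 (SE 0.30), and Lhx1 at -0.19 (SE 0.17) and 0.07 (SE 0.17).

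Across wild-type tissues the receptors of the releasing hormones differed in their order. Trhr, the Trh receptor, had 17.5 CPM in hypothalamus, 3.05 CPM in cortex and 9.48 CPM in brainstem, in the order of Trh itself. Crhr1 had 10.7 CPM in hypothalamus, 33.3 in cortex and 26.7 in brainstem. Its log2 fold change was -1.61 (SE 0.10) in hypothalamus minus cortex and -1.31 (SE 0.10) in hypothalamus minus brainstem. Crh also had its lowest mean in hypothalamus, though its difference from cortex did not pass. In cortex and brainstem the means were in opposite order, Crhr1 higher in cortex and Crh higher in brainstem. Crhr2, the receptor that prefers the urocortins, had 5.60 CPM in hypothalamus, 1.04 in cortex and 1.78 in brainstem, and was highest in hypothalamus (2.46, SE 0.16, and 1.70, SE 0.16). The transcription factor Sim1, which paraventricular and supraoptic neurons need, had 20.3 CPM in hypothalamus, 0.0134 in cortex and 0.1002 in brainstem. Otp had 48.1 CPM in hypothalamus, 0.0734 in cortex and 8.41 in brainstem. Sim1 and Otp belong to the list of 6 transcription factors, and the list as a whole was not in this order. Over all libraries of each tissue, models included, the list summed to a median of 445 CPM in hypothalamus, 519 in cortex and 310 in brainstem. Sim1 was chosen after its values were seen, so Sim1 and Otp do not stand for the list.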

How the data were processed

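Each library has a table of raw, unscaled gene counts, deposited by the authors. The submitters' processing notes name cutadapt 1.2.1, TopHat2 2.0.9, HTSeq 0.5.4p3 and the build GRCm38. Libraries were stranded, per the labels' protocols, and the strand setting of the counting is not given in the sources used here. The 5 lines for unassigned reads (24.7% to 42.0% of a library) were left out. Tests were edgeR 4.0.16 quasi-likelihood tests in R 4.3.3 (TMM, default expression filter by group, Benjamini-Hochberg adjustment over all genes tested, threshold 0.05), fitted per tissue on 12 libraries, or on all 36 between tissues. After filtering, 16738 (hypothalamus), 16479 (cortex), 16493 (brainstem) and 17744 (all libraries) genes were tested. The standard error of a log2 value is its size divided by the root of the F statistic, and 95% intervals use the t distribution of the fit. The fits were checked on simulated data, with less spread than the hypothalamus libraries and with changes larger than those of the members there. That check does not cover small changes or genes with few reads. Pairs of libraries of 1 group differed beyond sampling noise (chi-square per degree of freedom 2.46 to 345 over 36 pairs). Relations used log2 CPM with a prior count of 2. Alternatives were DESeq2 1.42.0, limma 3.58.1 voom with quality weights, other scalings and filters, a replicate block, fewer groups and leaving out libraries. List genes named were up to 3 with the smallest p in the hypothalamus comparisons, and for tissue levels Trhr, Crhr2 and Sim1, chosen after their values were seen. Kiss1 and Lhb were not analysed here. Members and lists were chosen with earlier results of these data known. The genes most like Oxt in pattern are not reported here.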

Additional observations from a re-analysis of the deposited data

How the results depend on the processing

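The number of members called stayed within 1.5 times in all 19 comparisons under every alternative run (307 values), and 0 pairs of members passed as related in every one. Of 476 recomputed model log2 fold changes of members, 443 kept their sign and side of the threshold and 0 passed. The other 33 turned sign and came from 14 of the 36 member values. Of 448 recomputed tissue values, 447 kept both, and Crh in hypothalamus minus cortex passed in 1. Without the 4 libraries rich in pituitary or nasal transcripts, Avp in transgenic hypothalamus was -0.079, and Crh was 0.40 in transgenic and -0.12 in knockout hypothalamus; that transgenic comparison has a single wild type, assumed to vary like the other groups. With voom Crh was 0.076 in transgenic hypothalamus, -0.30 in knockout hypothalamus and -0.082 in transgenic cortex, and Oxtr was 0.058 in knockout cortex. With the replicate block Ghrh in knockout hypothalamus was 0.00028, and the block changed no call. Same-numbered libraries were not paired in the main fits, since no comparison had every correlation of deviations over 0.1. That cut cannot exclude that tissues share animals, and the tissue tests treat all 36 libraries as independent. With each library left out in turn, values in transgenic hypothalamus ran from -0.31 to 0.25 for Crh, -0.16 to 0.15 for Ghrh and -0.11 to 0.078 for Avpr1a. In knockout hypothalamus they ran from -0.40 to 0.40 for Crh and -0.31 to 0.35 for Ghrh. In transgenic cortex they ran from -0.13 to 0.32 for Crh and -0.039 to 0.20 for Oxtr, and in knockout cortex from -1.41 to 0.34 for Trh and -0.082 to 0.11 for Oxtr. In transgenic brainstem they ran from -0.18 to 0.38 for Crh and -0.32 to 0.21 for Trh, and in knockout brainstem from -0.37 to 0.13 for Trh and -0.028 to 0.26 for Oxtr. Counts over all genes moved more. DESeq2 called 7 genes in transgenic and 10 in knockout hypothalamus (edgeR 1 and 2), 2 and 22 in cortex (edgeR 0 and 13), 9 and 21 in brainstem (edgeR 1 and 12), and 290 between the brainstem wild types (edgeR 0). Without ataxin-3 line brainstem wild type 3, edgeR called 457 genes in transgenic brainstem and 1177 between the wild types. The causes were not tested. Few reads limit Avp and Oxt outside hypothalamus, and the spread between libraries (biological coefficient of variation 18.0%) limits the hypothalamus.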
